A study of Mus musculus with 8 samples.

Results

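Lymph node cells taken from B10.BR mice 28 days after immunization (2 arrays) were compared with cells taken 7 days after immunization (3 arrays). These 5 of the 8 arrays of the series were chosen by the time point in the sample title. The other 3 arrays, of naive B10.BR mice, set the reference for what the early response had lost, what had persisted and what was newly present. B10.BR is an inbred laboratory strain, and the 3 groups differ in their labels only by immunization and time. The cells were sorted by flow cytometry as a single cell suspension, but the labels give neither the gate nor the antigen, nor the age of the mice. Total RNA was labelled with biotin and hybridised to Affymetrix mouse arrays, on which each transcript is read by 1 or more probe sets. Whether replicate arrays come from separate mice is not stated, so p-values describe the spread between these arrays, which may be technical, and the small number of arrays limits the precision.

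Each value below is the log2 of the deposited ratio of a probe set to a reference of its own. That reference is the median of its 8 values, or a shared floor where the median is lower. A value of 0 therefore marks the median of a probe set over the 8 arrays or, where the floor served, a level above that median. Levels of different genes cannot be set against each other. Of 22626 probe sets without controls, 13042 reached a ratio of 1 or more on 2 or more arrays and were tested. They represent 7825 genes, each by 1 probe set. Of the 13042, 10831 had a median ratio of 1, and in the others the floor served as reference. Differences are day 28 minus day 7 on the log2 scale unless stated, with the SE of limma's fit and its Benjamini-Hochberg adjusted p over the 13042 probe sets.

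In a lymph node, naive lymphocytes that meet antigen enlarge, divide and acquire effector programmes within days. Helper T cells that enter follicles make cytokines that act on B cells, and other helper cells gain receptors for inflamed tissue. After the peak most of the expanded cells die or leave, and those that remain as memory cells have returned to rest. B cells are recognised by the signalling chains of their antigen receptor and, with other antigen presenting cells, by the class II molecules of the major histocompatibility complex (MHC), which present peptides to CD4 T cells.

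The genes called lower at day 28 than at day 7 included 8 of mitosis and single genes of helper T cells such as Il21 and Cxcr3, and those called higher included genes of B cells, of MHC class II presentation and of CD8. Of the 7825 genes, 59 (0.754%) were called lower and 37 (0.473%) higher at an adjusted p under 0.05. By probe set, 115 (0.882%) were called lower and 55 (0.422%) higher. The called falls ranged from 2.86-fold to 38.6-fold and the called rises from 3.69-fold to 99.1-fold. The largest fall was that of Pclaf and the largest rise that of Cd79b. Of the 59 genes called lower, 10 belonged to the lists of mitosis or DNA replication, and of the 37 called higher, 18 belonged to the lists of B cells or MHC class II. Both day 28 arrays lay below all 3 day 7 arrays in 28.3% of genes and above them in 14.8%, and the median difference over all genes was -0.13.

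**Figure D1:**
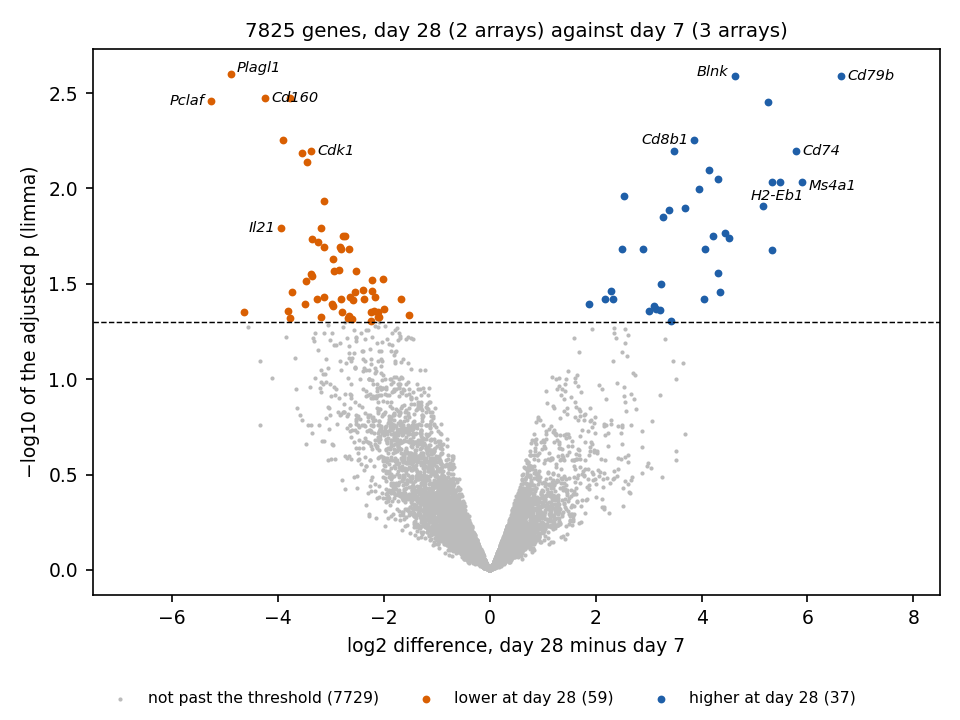
Log2 difference of day 28 minus day 7 (x axis) against -log10 of limma's adjusted p (y axis) for 7825 genes, 1 point per gene, with the threshold of 0.05 as a dashed line. The 59 genes called lower lie at the upper left, led by Pclaf and Plagl1, and the 37 called higher at the upper right, led by Cd79b.

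Of the 115 probe sets called lower, 114 reached a ratio of 1 on fewer than 2 arrays outside day 7 and so entered the test through the day 7 arrays. Of the 55 called higher, 16 entered through the day 28 arrays. Among all 13042 tested, 3859 entered in this way through day 7 and 639 through day 28. The filter thus admitted more probe sets that were high at day 7, which also bears on the shares of non-overlapping genes over all genes. Entry through 1 group favours non-overlap, so the counts of non-overlapping list members below are descriptions. A stricter filter that uses no group, a median ratio of 1 over the 8 arrays, called 36 lower and 26 higher. Among the calls above, that median held for 86 of the 115 lower and 37 of the 55 higher. The floor served as reference in the rest, among them Plagl1, Pclaf, Il21, Ptger2, Coro2b and Blnk. In these genes every array of the groups with low values lay below the floor. Their folds, and the overlap of their low groups, thus rest on values under it. The share of rises among the calls depended on scaling, with 55 higher of 170 (32.4%) as deposited, 70 higher and 102 lower (40.7% higher) after centring each array on its median, and 109 higher and 148 lower (42.4% higher) after quantile normalization. The median difference over all genes was -0.13 as deposited, 0.0064 after centring and 0.10 after quantile normalization.

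The arrays also differed in a technical measure that ran parallel to the comparison. The spike-in controls of the hybridisation, transcripts of bacterial origin, had median log2 ratios between -1.79 and -1.06 on naive replicate 1 and the 3 day 7 arrays, and between 0.64 and 1.48 on naive replicates 2 and 3 and both day 28 arrays. The first principal component (43.7% of the variance) divided the arrays in the same way. Day 7 and day 28 thus lie in different spike-in sets, and only the naive arrays, present in both, can separate set from time. With a term for the set, limma called 0 probe sets (smallest adjusted p = 0.0551), and the 115 falls and 55 rises kept their sign. At an unadjusted p under 0.05, 1703 were lower and 452 higher without the term, and 500 lower and 902 higher with it, so the balance of falls and rises turned. The median of the called falls was -2.95 without and -2.62 with that term, and that of the called rises 3.60 and 3.83. Median differences from the naive arrays of the same set are given for the main gene groups. For day 7 that reference is naive replicate 1 alone. The log2 ratios of naive replicate 1 had correlations of -0.227 and -0.289 with naive replicates 2 and 3. With day 7 replicates 1, 2 and 3 they were -0.058, 0.354 and 0.052.

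Single arrays decided many calls. With naive replicate 1, 2 or 3 left out the probe sets called numbered 810, 76 and 129, with day 7 replicate 1, 2 or 3 left out they numbered 100, 54 and 25, and with day 28 replicate 1 or 2 left out they numbered 29 and 74. Of the 44 genes named here that were called, 44, 26 and 36 were called with naive replicate 1, 2 or 3 left out, 25, 20 and 14 with day 7 replicate 1, 2 or 3 left out, and 9 and 23 with day 28 replicate 1 or 2 left out. The 7 called in each of these 8 fits were Pclaf, Plagl1, Cd160, Ptger2, Cd79b, Blnk and Cd8b1. None of the 44 changed sign.

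Genes of mitosis were lower at day 28. Of 32 measured members (33 on the array), 8 fell, 0 rose and 24 did not pass, with a median difference of -1.60 against -0.13 over all genes. Over all genes 0.754% were called lower and 0.473% higher, the shares to set beside the counts of this and the later lists. In 29 of the 32, both day 28 arrays lay below all day 7 arrays, as against 28.3% of all genes. Members such as Ccnb2, Nuf2 and Bub1 were below 0 on all naive and day 28 arrays, so they were measured only through day 7. The list was also written with earlier results of these data known, so this count is no independent support. Over the list, the median log2 ratio was 0.93, 1.69 and 1.86 on the day 7 arrays and -0.26 and -0.21 on the day 28 arrays. Naive cells had -0.20, -0.36 and -0.46, so the day 28 medians lay within the range of the naive ones. The number of members called was 11, 2 and 4 with naive replicate 1, 2 or 3 left out, 5, 3 and 1 with day 7 replicate 1, 2 or 3 left out, and 2 with either of the day 28 pair left out.

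Cdk1 (gene ID 12534), the kinase that drives entry into mitosis, had log2 ratios of 3.34, 3.03 and 3.73 at day 7, -0.16 and 0.14 at day 28, and -0.92, -0.67 and -1.04 in naive cells. The groups did not overlap, and day 28 lay between day 7 and naive. Cdk1 fell 10.4-fold (-3.37 ± 0.33, adjusted p = 0.00639), and its difference from naive at day 28 was 0.87 (adjusted p = 0.698). Cenpa (gene ID 12615), the histone H3 variant that marks centromeres, had 2.32, 2.58 and 2.54 at day 7 and -0.51 and -1.43 at day 28. It fell 10.9-fold (-3.45 ± 0.35, adjusted p = 0.00725), to below its naive values of 0.04, -0.17 and -0.05. Without day 28 replicate 1, Cdk1 had an adjusted p = 0.058, and without day 7 replicate 3, Cenpa had an adjusted p = 0.0562.

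Among other members that fell, Ccna2, a cyclin of S phase and mitosis, had a difference of -3.27, Ube2c, the ubiquitin-conjugating enzyme of the anaphase-promoting complex, -2.95, and Nusap1, a spindle microtubule protein, -2.82. Ccnb2, a mitotic cyclin, had -2.64, Cdc20, an activator of the anaphase-promoting complex, -2.60, and Cks1b, a partner of cyclin-dependent kinases, -2.59. Cks2, its relative, had the largest difference of the list (-4.57 ± 0.85) but did not pass (adjusted p = 0.0535). Mki67, the Ki-67 proliferation marker, had 1.34, 1.69 and 1.94 at day 7, -0.99 and 0.58 at day 28 and -1.63, -2.71 and -1.34 in naive cells, and did not pass either (-1.86 ± 0.58, adjusted p = 0.174). Both day 28 values of Mki67 were above the naive ones. Kif22, a chromosome-arm kinesin, was the only measured member with a positive difference (0.67 ± 0.35, adjusted p = 0.394).

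Since Cdk1 and Cenpa fell together with 6 other mitosis genes, their promoters are shown for the motifs of cell-cycle promoters, CCAAT and TTTGAA, the second a form of the cell-cycle homology element. The sequences are RefSeq's on GRCm38.p6, 250 bases before the start of the gene, 5' to 3' on the gene's strand, with chr10:69352913-69353162 on the minus strand for Cdk1 and chr5:30666636-30666885 on the plus strand for Cenpa. Capitals mark CCAAT, which reads ATTGG where it lies on the opposite strand, and TTTGAA.
Cdk1: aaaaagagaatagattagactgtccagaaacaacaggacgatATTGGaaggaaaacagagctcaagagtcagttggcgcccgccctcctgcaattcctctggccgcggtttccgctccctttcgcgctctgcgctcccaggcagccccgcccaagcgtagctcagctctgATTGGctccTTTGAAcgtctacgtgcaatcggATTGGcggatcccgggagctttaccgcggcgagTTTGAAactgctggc
Cenpa: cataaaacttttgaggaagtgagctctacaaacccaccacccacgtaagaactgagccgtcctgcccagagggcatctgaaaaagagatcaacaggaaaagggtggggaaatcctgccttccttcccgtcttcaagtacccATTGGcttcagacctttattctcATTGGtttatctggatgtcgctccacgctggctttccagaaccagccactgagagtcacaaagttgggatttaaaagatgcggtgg
In Cdk1, CCAAT lay on the opposite strand 208, 80 and 48 bases before the start, and TTTGAA 71 and 15 bases before it. In Cenpa, CCAAT lay on the opposite strand 109 and 86 bases before the start, and TTTGAA was found 17 bases after it, outside the stretch shown. In windows from 250 bases before to 50 after the start, on both strands, CCAAT was present in 20 of the 28 mitosis genes with a promoter in the table (71.4%) and in 43.2% of the 6357 tested genes with one. TTTGAA was present in 19 of the 28 (67.9%) and in 14.7% of the tested genes. These shares are descriptions of the letters, with no test.

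Genes of DNA replication had a median difference of -1.06 (33 measured of 34 on the array). Of these 2 fell, 0 rose and 31 did not pass. In 23 of the 33, both day 28 arrays lay below all day 7 arrays, as against 28.3% of all genes. Pclaf (gene ID 68026), a partner of the replication clamp PCNA, had 3.62, 4.65 and 4.86 at day 7, -1.06 and -0.73 at day 28 and -0.86, -1.08 and -1.17 in naive cells. Its day 28 values overlapped the naive ones and lay far below day 7, and both groups lay under the floor that served as reference. Pclaf fell 38.6-fold (-5.27 ± 0.42, adjusted p = 0.00348), while another of its probe sets, too dim to be tested, had a difference of -0.29. Rrm1, the large subunit of ribonucleotide reductase, fell by 2.11 on the log2 scale (SE 0.38, adjusted p = 0.0474) and lost its call in 7 of the 8 fits without 1 array. Pcna itself had -1.72 ± 0.50 (adjusted p = 0.154), the primase subunit Prim1 -2.36 ± 0.47 (adjusted p = 0.0618), and the thymidylate synthase gene Tyms 0.56 ± 0.33 (adjusted p = 0.443). Against naive arrays of the same spike-in set, the list's median was 0.92 at day 7 and 0.23 at day 28, and that of mitosis 1.69 and 0.15. Here and below, the day 7 reference of this kind is naive replicate 1 alone.

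Genes of follicular helper T cells, the helper cells of B cell follicles, had the most negative median of the T cell lists, -1.77 (16 measured of 19 on the array). Only 1 fell, 0 rose and 15 did not pass. In 10 of the 16, both day 28 arrays lay below all day 7 arrays, as against 28.3% of all genes. Il21 (gene ID 60505), a cytokine that acts on B cells, had 4.62, 2.97 and 3.20 at day 7, -0.42 and -0.25 at day 28 and -0.44, -0.45 and -0.19 in naive cells. The day 28 values were thus within the naive range, and both groups lay under the floor that served as reference. Il21 fell 15.3-fold (-3.94 ± 0.50, adjusted p = 0.0162), with an adjusted p = 0.0709 without day 7 replicate 3, 0.111 without day 28 replicate 1 and 0.0761 without day 28 replicate 2. Il4, another helper cytokine, had 5.13, 2.21 and 3.01 at day 7 and -0.61 and -0.20 at day 28, and did not pass (-3.85 ± 0.75, adjusted p = 0.0599). Bcl6, a repressor required for these cells, had 3.10, 1.91 and 2.43 at day 7 and -0.64 and -0.07 at day 28 (-2.83 ± 0.58, adjusted p = 0.0648), with a difference of -1.42 under the spike-in term. The costimulatory receptor Icos had -3.16 ± 0.73 (adjusted p = 0.0942) and the inhibitory receptor Pdcd1 -2.28 ± 0.74 (adjusted p = 0.184). Against naive arrays of the same spike-in set, the median of the list was 1.95 at day 7 and 0.74 at day 28, and that of the difference was -1.17.

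Cxcr5, the receptor that guides cells into follicles, differed from the cytokines in its day 28 values. It had 2.38, -0.91 and 1.63 at day 7, 0.55 and 0.65 at day 28 and -3.36, -3.38 and -3.20 in naive cells. Day 28 lay inside the day 7 range and above all naive arrays. The difference from day 7 was -0.43 ± 0.84 (adjusted p = 0.825, turning to 0.25 without day 7 replicate 1), that from naive at day 28 was 3.92 ± 0.84 (adjusted p = 0.203), and that from naive at day 7 was 4.35 ± 0.75 (adjusted p = 0.0462). Cxcr5 is also a gene of resting B cells and stands in that list too. Pou2af1, a coactivator in both lists, had 0.86, 0.65 and 0.04 at day 7, -0.04 and 0.27 at day 28 and -1.33, -2.61 and -2.82 in naive cells, and its difference from day 7 was -0.40 ± 0.50 (adjusted p = 0.721).

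Lists of T cell activation and of Th1 effector cells had medians of -1.45 and -1.09. Of 14 measured activation genes (19 on the array) 1 fell and 13 did not pass, and of 12 measured Th1 genes (16 on the array) 1 fell and 11 did not pass, with 0 rises in either. Tnfsf11, which encodes the cytokine RANKL, had 1.94, 2.77 and 2.69 at day 7 and -0.35 and -0.25 at day 28, and fell 6.81-fold (-2.77 ± 0.36, adjusted p = 0.0177). Cxcr3 (gene ID 12766), a chemokine receptor of effector T cells, had 2.93, 3.76 and 2.95 at day 7, -0.37 and 0.29 at day 28 and -1.80, -1.81 and -0.98 in naive cells. It fell 9.53-fold (-3.25 ± 0.44, adjusted p = 0.019), yet both day 28 arrays stayed above the naive ones (1.49, adjusted p = 0.479). Both genes lost their calls when day 7 replicate 2, day 7 replicate 3 or either array of day 28 was left out, with adjusted p from 0.0571 to 0.125. Ifng, the cytokine of Th1 cells, had 2.70, 6.30 and 3.07 at day 7 and -0.12 and -0.07 at day 28 and did not pass (-4.12 ± 0.97, adjusted p = 0.098). Tbx21, the Th1 transcription factor T-bet, had -2.48 ± 0.77 (adjusted p = 0.174), and the adhesion receptor Cd44 -2.41 ± 0.67 (adjusted p = 0.139). With the spike-in term Cd44 had -0.57 ± 0.77 (adjusted p = 0.897). Against naive arrays of the same spike-in set, the activation median was 0.87 at day 7 and 0.61 at day 28, and the median of the difference of the 2 was -0.40. For Th1 genes these medians were 1.45, 0.25 and -0.67.

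S100, galectin and annexin genes, which encode calcium, sugar and membrane binding proteins of effector and memory lymphocytes, had 3 falls, 0 rises and 16 members that did not pass (19 measured of 19, median -1.07). The falls were 15.8% of the list, as against 0.754% of all genes. S100a6 had 3.62, 2.83 and 3.12 at day 7 and -0.05 and 0.05 at day 28 and fell 9.13-fold (-3.19 ± 0.40, adjusted p = 0.0161). Lgals3, which encodes galectin-3, had 2.56, 3.49 and 4.34 at day 7 and -0.18 and 0.16 at day 28 and fell 11.1-fold (-3.47 ± 0.53, adjusted p = 0.0306). In both genes each day 28 array still lay above all naive arrays, by 1.17 for S100a6 and 1.24 for Lgals3 in the means (adjusted p = 0.616 and 0.781). Lgals1, which encodes galectin-1, did not pass by the probe set used here (-3.30 ± 0.78, adjusted p = 0.098) but did by another (-3.41, adjusted p = 0.0447). The list's median over naive was 1.56 at day 7 and 1.17 at day 28, and 1.37 and 1.08 within spike-in sets. Without day 7 replicate 3 or either day 28 array, 0 members were called.

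Genes outside these lists fell as well. Plagl1 (gene ID 22634), a zinc finger transcription factor, had 3.97, 4.03 and 4.39 at day 7, -0.80 and -0.71 at day 28 and -0.74, -0.81 and -0.85 in naive cells. Day 28 and naive values overlapped, more than 4 log2 units below day 7, and both groups lay under the floor that served as reference. It fell 29.6-fold (-4.89 ± 0.28, adjusted p = 0.00251), while another of its probe sets, too dim to be tested, had a difference of -0.026. Cd160, a receptor of NK and T cells, had 4.16, 3.90 and 3.92 at day 7 and -0.28 and -0.23 at day 28 and fell 19-fold (-4.25 ± 0.33, adjusted p = 0.00333), by 1 of its 3 probe sets. Ptger2, a receptor for prostaglandin E2, had 3.76, 3.66 and 3.45 at day 7 and -0.14 and -0.17 at day 28 and fell 13.7-fold (-3.78 ± 0.28, adjusted p = 0.00333). Gna13, a G protein subunit that restrains migration of follicular lymphocytes, fell by 3.90 on the log2 scale by the probe set used, and 2 of its 6 probe sets were called. Coro2b, an actin-binding coronin, fell by 3.54 and Padi4, a peptidylarginine deiminase, by 3.74.

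Some genes were called lower without having been called raised at day 7 (42 of the 115 probe sets). At day 28, 35 of the 115 lay 1 log2 unit or more below naive. Zfpm1, the GATA cofactor FOG-1, had 0.86, 1.16 and 0.24 at day 7, -2.95 and -2.29 at day 28 and -0.28, -0.50 and 0.86 in naive cells, so that day 28 alone was low. It fell 10.4-fold (-3.38 ± 0.51, adjusted p = 0.0282), and its difference from naive was -2.65 (adjusted p = 0.142). Lims1, a focal adhesion adaptor, had -3.80 by the probe set used, but its other tested probe set had 0.21 (adjusted p = 0.856). Nudt1, which clears oxidised nucleotides, had -4.64. In Nudt1 and in Pfn2, an actin-binding profilin (-3.76), naive replicate 1 had 0.77 and 0.68 and the other naive arrays lay between -1.97 and -1.31, close to day 28, so these genes followed the spike-in sets among the naive arrays. With the spike-in term their differences were -2.02 for Nudt1 and -1.53 for Pfn2. The other tested Pfn2 probe sets had -1.12 and -1.88 and did not pass (adjusted p = 0.36 and 0.0996). Of 36 measured genes of oxidative phosphorylation, 2 fell (5.56%, as against 0.754% of all genes), 0 rose and 34 did not pass (median -0.65). Those that fell were the complex I subunits Ndufc1 (-3.20) and Ndufb8 (-2.19). Ndufc1 had 0.46, -1.46 and -0.67 in naive cells and a difference of -1.67 with the spike-in term. Both kept their call in at most 2 of the 8 fits without 1 array.

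**Figure D2:**
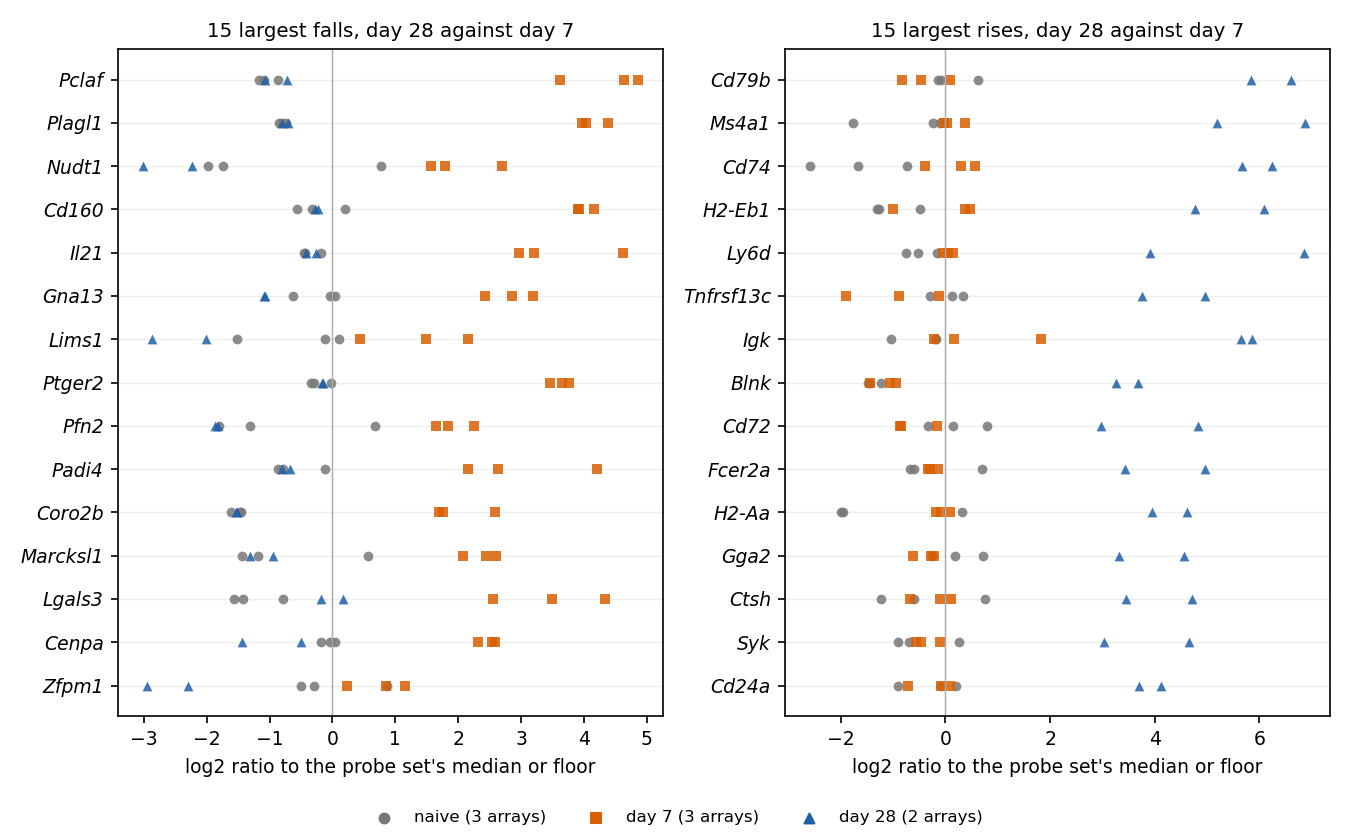
Log2 ratio to each probe set's median or floor (x axis) on every array for the 15 genes with the largest falls (left) and the 15 with the largest rises (right) among those named, with naive arrays as grey circles, day 7 as orange squares and day 28 as blue triangles. On the left the naive and day 28 arrays of most genes lie together below day 7, as for Plagl1, whereas Zfpm1 is low at day 28 alone, and on the right both day 28 arrays stand apart from the 6 others.

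Setting each comparison's own calls side by side gives the classes of lost, persisting and newly present genes. The comparisons share arrays, so the counts describe profiles and are not independent of each other. By gene, 81 (1.04%) were called higher and 9 (0.115%) lower than naive at day 7, and 29 (0.371%) and 1 (0.0128%) at day 28. By probe set at day 7, 138 (1.06%) were called higher and 14 (0.107%) lower than naive, and at day 28 the numbers were 35 (0.268%) and 7 (0.0537%). Probe sets called lost, higher at day 7 than naive and lower at day 28 than day 7, numbered 73 (0.56%) with 61 gene symbols, or 39 genes (0.498%) by the probe set chosen for each. Of the 138 raised at day 7, 132 had both day 28 arrays below all day 7 arrays (29.7% of all probe sets did) and 42 had both day 28 arrays above all naive arrays (7.76% of all probe sets did). High day 7 and low naive values on these same arrays had selected the 138, which favours both counts. The shares over all probe sets, which were not so selected, are therefore no measure of an excess. The 138 had a median over naive of 3.17 at day 7 and 0.20 at day 28. In 102 of them the day 28 mean was less than 1 log2 unit above naive, and in 36 it was 1 or more above. The number lost was 575, 10 and 22 with naive replicate 1, 2 or 3 left out, 58, 27 and 10 with day 7 replicate 1, 2 or 3 left out, and 8 and 12 with day 28 replicate 1 or 2 left out.

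**Figure D3:**
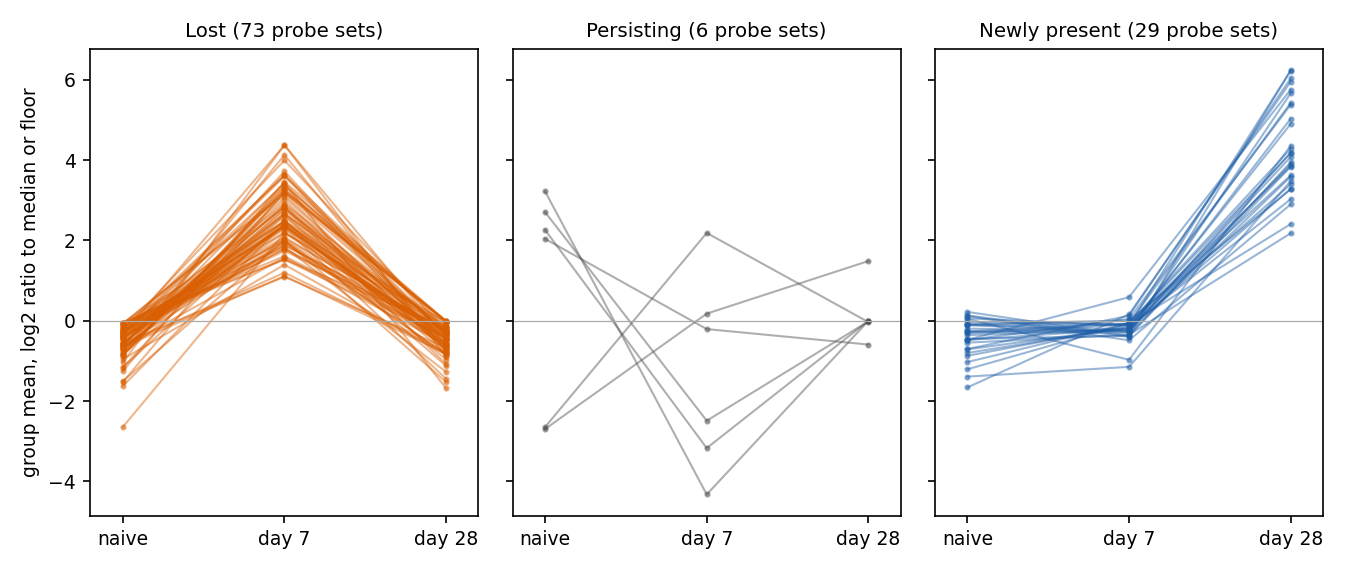
Group means of the log2 ratio to median or floor (y axis) in naive, day 7 and day 28 cells (x axis), 1 line per probe set, for the 73 called lost, the 6 persisting and the 29 newly present. The classes are defined by these same values, so the shapes are descriptive, and the persisting panel shows 2 probe sets that stayed above and 4 that stayed below naive.

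Few differences from naive were called at both times. Probe sets called in the same direction at day 7 and day 28 numbered 6 (0.046%), 2 higher and 4 lower than naive, or 3 genes (0.0383%) by the chosen probe set. S100a4 (gene ID 20198), a calcium-binding protein of motile and memory lymphocytes, had 2.19, 2.06 and 2.30 at day 7, -0.35 and 0.28 at day 28 and -2.31, -2.70 and -2.93 in naive cells. The 3 groups were separate, with day 28 about midway. S100a4 fell 4.66-fold from day 7 (-2.22 ± 0.34, adjusted p = 0.0302), so it is also among the lost, and was 2.61 ± 0.34 above naive at day 28 (adjusted p = 0.0274). Cd83 (gene ID 12522), which stabilises MHC class II at the surface of activated cells, had 0.29, -0.36 and 0.61 at day 7, 1.64 and 1.33 at day 28 and -3.49, -2.27 and -2.34 in naive cells. It was 2.87 above naive at day 7 (adjusted p = 0.0301) and 4.18 above at day 28 (adjusted p = 0.0161), and its rise from day 7 to day 28 did not pass (1.31 ± 0.48, adjusted p = 0.229), with 0.13 under the spike-in term.

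On the lower side, Igfbp4, a secreted binder of insulin-like growth factors and a gene of naive T cells, gave 3 of the 4 probe sets. The one with the largest change had 3.79, 2.92 and 2.95 in naive cells, -4.15, -4.43 and -4.39 at day 7 and 0.04 and -0.04 at day 28. It had thus regained 20-fold from day 7 (4.32 ± 0.36, adjusted p = 0.00351) and was still 3.22 log2 units below naive in size (-3.22, adjusted p = 0.0154). Of its 5 tested probe sets 3 were called higher at day 28 than at day 7. The probe set chosen for the gene by the rule was not among them (0.53 ± 0.35, adjusted p = 0.498). Slc9a3r1, a scaffold protein that links membrane proteins to the cytoskeleton, gave the other, with 1.96, 1.96 and 2.20 in naive cells, -0.04, 0.04 and -0.62 at day 7 and -0.76 and -0.43 at day 28. Its difference from day 7 was -0.38 ± 0.33 (adjusted p = 0.6), and its 2 other tested probe sets did not pass. The count of 6 was 29, 1 and 1 with naive replicate 1, 2 or 3 left out, 3, 3 and 0 with day 7 replicate 1, 2 or 3 left out, and 0 and 1 with day 28 replicate 1 or 2 left out.

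The naive and resting T cell list held no call between day 7 and day 28. Of 14 measured (16 on the array), 0 passed in limma in either direction, and 3 were higher and 0 lower at an unadjusted p under 0.05. In 7 of the 14, both day 28 arrays lay above all day 7 arrays, as against 14.8% of all genes. The median difference was 0.72. Relative to naive, its members did not take 1 position at day 28. The means of Ccr7 (-2.97), Foxo1 (-1.31) and Actn1 (-1.30) lay below naive and above day 7, those of Bach2 (1.0) and Satb1 (0.44), chromatin and transcription regulators, lay above naive, and that of Lef1, a T cell transcription factor, lay below both (-3.25). Over naive the median was -1.22 at day 7 and -0.52 at day 28. Ccr7, the lymph node homing receptor, had -2.08, -1.36 and -1.65 at day 7, -0.76 and 0.50 at day 28 and 0.75, 4.01 and 3.74 in naive cells (1.56 ± 0.94, adjusted p = 0.46). The sign of Ccr7 turned to -1.56 with the spike-in term. Il7r, a receptor of a survival cytokine, had 1.23 ± 0.78 (adjusted p = 0.479), and 3.67 ± 0.72 with that term (adjusted p = 0.184). Against naive arrays of the same spike-in set, the median of the list was -1.20 at day 7 and -0.32 at day 28, and that of the difference per gene was 0.07. Nkg7, a granule protein of cytotoxic cells chosen here after its values were seen, had -2.69, -3.73 and -3.37 in naive cells, 0.21, 1.72 and 0.45 at day 7 and 0.12 and -0.13 at day 28 (-0.80 ± 0.52, adjusted p = 0.495).

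B cell genes were the largest group of rises. Of 22 measured (24 on the array), 13 rose, 0 fell and 9 did not pass, with a median difference of 2.92. In 20 of the 22, both day 28 arrays lay above all day 7 arrays, as against 14.8% of all genes. The list's median log2 ratio was 2.99 and 2.64 on the day 28 arrays. It lay between -0.26 and -0.11 at day 7 and between -0.51 and -0.25 in naive cells, so the 6 other arrays lay close to 0 or below. Against naive arrays of the same spike-in set the median was 0.16 at day 7 and 3.17 at day 28. The number of members called was 15, 9 and 12 with naive replicate 1, 2 or 3 left out, 7, 4 and 3 with day 7 replicate 1, 2 or 3 left out, and 3 and 10 with day 28 replicate 1 or 2 left out.

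Genes of the B cell antigen receptor and its signalling were among the largest. Cd79b (gene ID 15985), a signalling chain of the receptor, had 0.09, -0.83 and -0.46 at day 7, 6.61 and 5.84 at day 28 and -0.13, -0.09 and 0.63 in naive cells. Day 28 lay more than 5 log2 units above every other array. Cd79b rose 99.1-fold (6.63 ± 0.43, adjusted p = 0.00256). Its partner Cd79a rose 4.87-fold (2.29 ± 0.36, adjusted p = 0.0346). Blnk, the adaptor that couples the receptor to its enzymes, had -0.94, -1.45 and -1.06 at day 7 and 3.27 and 3.69 at day 28 and rose 24.7-fold (4.62 ± 0.31, adjusted p = 0.00256). The kinases Syk (4.21) and Blk (3.10) and the immunoglobulin kappa locus Igk (5.17 ± 0.61, adjusted p = 0.0124) also rose. Other Igk probe sets, too dim to be tested, had differences of 0.095, 0.075 and -0.035. Of 6 immunoglobulin constant and joining genes only Igk was called (median 0.11), and Ighm, the mu chain, had 3.52 ± 1.40 (adjusted p = 0.265).

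Surface molecules of mature B cells rose as well. Ms4a1 (gene ID 12482), which encodes CD20, had 0.38, 0.02 and -0.02 at day 7, 6.87 and 5.20 at day 28 and -0.09, -1.77 and -0.24 in naive cells. It rose 60-fold (5.91 ± 0.64, adjusted p = 0.0093), and by its other probe set by 2.49 (adjusted p = 0.0404). Without day 7 replicate 3 and without day 28 replicate 1 its adjusted p was 0.0653 and 0.0647. Tnfrsf13c, the receptor for the survival factor BAFF, had -0.13, -0.89 and -1.90 at day 7 and 4.95 and 3.76 at day 28 and rose 40.2-fold (5.33 ± 0.58, adjusted p = 0.0093). Ly6d, a surface protein of early and mature B cells, had 6.85 and 3.90 at day 28 and between -0.05 and 0.14 at day 7 (5.33 ± 0.75, adjusted p = 0.0211). Fcer2a, which encodes CD23, rose by 4.45, Cd72, an inhibitory coreceptor, by 4.53, Cd24a by 4.15 and Cr2, the complement receptor, by 3.26. The other tested Cd24a probe sets had 1.47 and 1.81 and did not pass (adjusted p = 0.14 and 0.0799). Another Fcer2a probe set, too dim to be tested, had a difference of 0.059. Cd22, an inhibitory receptor, had 3.27 and 2.62 at day 28 but 0.30, 0.71 and -0.38 at day 7 and did not pass (2.74 ± 0.64, adjusted p = 0.0957). The transcription factor Spib rose by 3.39, while Ebf1, another B lineage factor, had 0.43 ± 0.35 (adjusted p = 0.577) and Pax5 was too dim to be tested.

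Genes of antigen presentation on MHC class II rose in 5 of 13 measured members (14 on the array), with 0 falls, 8 that did not pass and a median of 1.70. In 9 of the 13, both day 28 arrays lay above all day 7 arrays, as against 14.8% of all genes. Within spike-in sets the median over naive was 0.0062 at day 7 and 2.34 at day 28. Cd74 (gene ID 16149), the invariant chain that escorts class II molecules, had 0.56, 0.30 and -0.38 at day 7, 5.67 and 6.23 at day 28 and -0.72, -2.58 and -1.67 in naive cells. It rose 55.4-fold (5.79 ± 0.57, adjusted p = 0.00639). H2-Eb1 (gene ID 14969), a class II beta chain, had 0.47, -1.0 and 0.37 at day 7, 6.08 and 4.77 at day 28 and -0.49, -1.31 and -1.28 in naive cells and rose 44.6-fold (5.48 ± 0.59, adjusted p = 0.0093). In both genes the day 28 arrays were far above all others. The day 7 and naive arrays overlapped for H2-Eb1 and did not for Cd74, whose mean at day 7 lay 1.82 above naive without passing (adjusted p = 0.161). The alpha chain H2-Aa rose by 4.34 ± 0.69 (adjusted p = 0.0348, with 6.64 under the spike-in term), the beta chain H2-Ab1 by 3.24 ± 0.50 (adjusted p = 0.0318) and H2-DMa, which loads peptide onto class II, by 2.33. Members that did not pass included the costimulators Cd86 (0.51) and Cd80 (0.35) and the protease Ctss (-0.21). The number of members called was 6, 2 and 4 with naive replicate 1, 2 or 3 left out, 2 without any one of the day 7 arrays, and 0 and 4 with day 28 replicate 1 or 2 left out.

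The promoters of H2-Eb1 and H2-Aa are shown since both chains rose and class II promoters share a Y box, searched here as CTGATTGG, which holds CCAAT on its opposite strand. The sequences are RefSeq's on GRCm38.p6, 250 bases before the start, 5' to 3' on the gene's strand, chr17:34305617-34305866 on the plus strand for H2-Eb1 and chr17:34287824-34288073 on the minus strand for H2-Aa, with CTGATTGG in capitals.
H2-Eb1: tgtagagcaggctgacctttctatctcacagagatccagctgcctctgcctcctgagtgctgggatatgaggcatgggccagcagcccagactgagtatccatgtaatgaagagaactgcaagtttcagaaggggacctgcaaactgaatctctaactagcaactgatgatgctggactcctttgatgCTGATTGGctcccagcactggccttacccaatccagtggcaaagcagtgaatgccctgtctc
H2-Aa: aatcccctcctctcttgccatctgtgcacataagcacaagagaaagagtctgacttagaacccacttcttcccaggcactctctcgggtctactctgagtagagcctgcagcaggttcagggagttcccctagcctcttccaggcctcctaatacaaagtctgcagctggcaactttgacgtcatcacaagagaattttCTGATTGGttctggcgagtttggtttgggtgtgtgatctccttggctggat
The match began 62 bases before the start in H2-Eb1 and 51 bases before it in H2-Aa. In windows from 250 bases before to 50 after the start, on both strands, CTGATTGG was present in 3 of the 8 class II list members with a promoter in the table (37.5%), in 7 of the 28 mitosis genes (25%) and in 6.87% of the tested genes. TTTGAA was present in 0 of the 8. With so few members these shares are descriptions, with no test.

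Both chains of the CD8 coreceptor rose, whereas other genes of cytotoxic cells were not called. Of 11 measured genes of CD8 T cells and cytotoxicity (15 on the array), 2 rose, 0 fell and 9 did not pass (median 0.71, and 0.32 within spike-in sets). The rises were 18.2% of the list, as against 0.473% of all genes. Cd8b1 (gene ID 12526) had -0.13, -0.44 and -0.26 at day 7, 4.07 and 3.10 at day 28 and -0.13, -0.06 and -0.14 in naive cells. The day 28 arrays stood apart from the 6 others. Cd8b1 rose 14.6-fold (3.87 ± 0.35, adjusted p = 0.00559). Cd8a had 4.21 and 2.25 at day 28 and between -0.07 and 0.11 at day 7 and rose 9.31-fold (3.22 ± 0.55, adjusted p = 0.0433), a call kept only without naive replicate 1 or day 28 replicate 2. Another Cd8a probe set, too dim to be tested, had a difference of 0.018. Gzma, a granzyme, had 0.71, Gzmb -1.01 and the transcription factor Eomes 0.04, none of them called.

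Genes of T cells as a whole did not pass in either direction. Of 16 measured T cell identity genes, 0 were called in limma, 1 was higher and 0 lower at an unadjusted p under 0.05, and the median was -0.21, or -0.61 within spike-in sets. Cd3e, a chain of the T cell receptor complex, had -0.51, 1.40 and -0.11 at day 7 and -2.43 and 2.68 at day 28, so that the 2 day 28 arrays were the lowest and the highest of the 5 (-0.13 ± 1.35, adjusted p = 0.97). Cd3e had 0.19 after quantile normalization, and 2.42 without day 28 replicate 1. Cd4, the helper coreceptor, had 0.58, -0.24 and -0.24 at day 7 and -2.43 and 0.42 at day 28 (-1.04 ± 1.14, adjusted p = 0.683, with 0.38 without day 28 replicate 1). The other tested Cd4 probe set had a difference of 0.61 (adjusted p = 0.567). In bulk RNA, a change in the share of a cell type and a change in RNA per cell cannot be told apart, and this holds for the B cell, class II and CD8 genes as for those of dividing and helper cells.

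Markers of other cells were measured beside these rises. Of 14 measured monocyte and macrophage genes (23 on the array) 0 passed in limma, with 3 higher and 1 lower at an unadjusted p under 0.05 and a median of 0.41. Lyz2, the lysozyme of myeloid cells, had 5.43 and 2.19 at day 28 and 0.08, -0.08 and 0.90 at day 7 (3.51 ± 0.84, adjusted p = 0.0996), while Csf1r, a receptor that defines macrophages, had -0.57 and Adgre1 0.39. The list's median was 0.59 and 0.28 on the day 28 arrays and between -0.21 and 0.56 at day 7, and Cd14 and Cd68 were too dim to be tested. The medians were 0.13 for 5 dendritic cell genes, -0.16 for 5 neutrophil genes, 0.65 for 8 NK cell genes and 0.82 for 6 erythroid and platelet genes, with 0 called except Cd160, lower, in the NK cell list. For 10 genes of germinal centre B cells and of plasma cells the median was -0.27 with 0 called in limma (0 higher and 1 lower at an unadjusted p under 0.05). Eif2s3y, a Y-linked gene, had 3.70 on day 28 replicate 1, -0.05 on day 28 replicate 2 and between -0.59 and 0.04 at day 7. Xist, an RNA of the inactive X chromosome, had -3.41 and -0.47 at day 28 and 1.34, 1.30 and 1.95 at day 7. On naive replicates 1, 2 and 3, Eif2s3y had 2.87, -0.04 and 0.24 and Xist -3.22, -3.36 and 0.35, so both also varied among naive arrays. The part of the cell mixture or of the sex of the mice in the results was not tested.

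**Figure D4:**
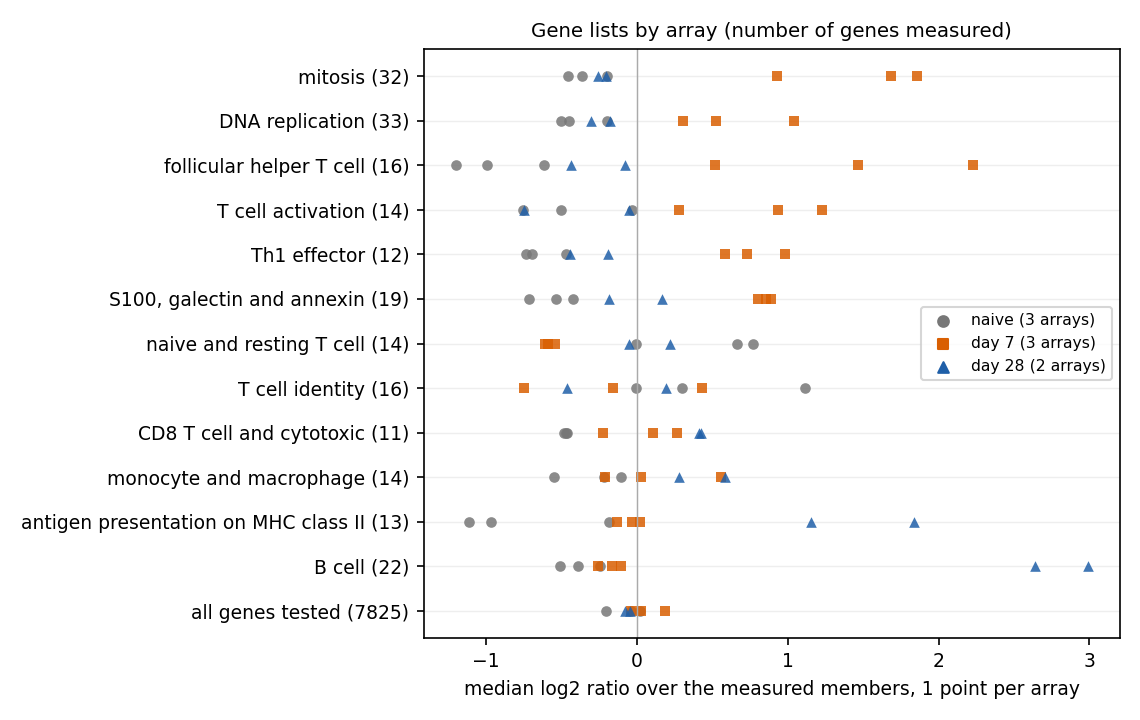
Median log2 ratio over the measured members of each gene list (x axis), 1 point per array, with naive arrays as grey circles, day 7 as orange squares and day 28 as blue triangles and the number of genes in brackets. Mitosis separates the day 7 arrays (0.93 to 1.86) from the others, and the B cell list separates the day 28 arrays (2.64 and 2.99), while T cell identity separates neither.

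**Figure D5:**
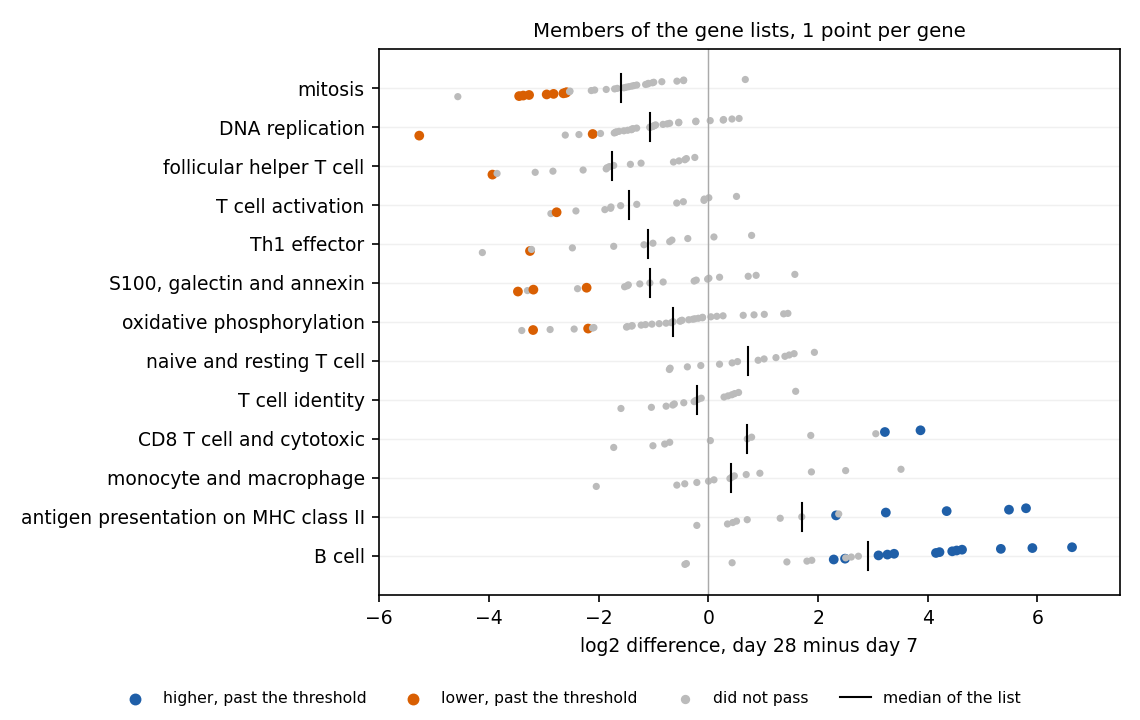
Log2 difference of day 28 minus day 7 (x axis) for each measured member of the gene lists, 1 point per gene, with genes called higher in blue, genes called lower in orange, genes that did not pass in grey and the list median as a bar. The B cell list has 13 members in blue and a median of 2.92, and the mitosis list has 8 in orange and a median of -1.60.

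Probe sets newly present, called higher at day 28 than both naive and day 7, numbered 29 (0.222%) with 26 gene symbols, or 23 genes (0.294%) by the chosen probe set. Outside the lists they included Ctsh, a lysosomal cysteine protease (4.30 ± 0.64, adjusted p = 0.0276), and Gga2, an adaptor of vesicle sorting (4.32 ± 0.46, adjusted p = 0.00892). Of the 55 probe sets called higher than day 7, 50 lay at least 1 log2 unit above naive, 2 within 1 unit and 3 at least 1 unit below. In 43 of the 55 the value was greater on day 28 replicate 1 than on replicate 2 (medians 3.90 and 2.75). The number newly present was 29, 17 and 6 with naive replicate 1, 2 or 3 left out, 20, 17 and 9 with day 7 replicate 1, 2 or 3 left out, and 2 and 38 with day 28 replicate 1 or 2 left out.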

How the data were processed

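The values were deposited by the authors as linear ratios; per the submitters' processing notes they were made with GCRMA, whose version is not given in the sources used here. The reference of each ratio was inferred, since 47.9% of medians across the 8 arrays equal 1 (tolerance 0.0015). The table held 22690 rows, 0 missing values and 64 control probe sets. Log2 ratios were fitted with limma 3.58.1 in R 4.3.3, with 1 mean per group over the 8 arrays and empirical Bayes moderation, two-sided, and checked on simulated data. Among 22626 probe sets, 20380 had a single symbol, 691 had several and 1555 had none. A gene was the kept probe set with the highest median ratio, ties broken by probe set type and ID. Named were the 15 largest rises and falls called without overlap, up to 4 called members per list, up to 8 genes per class and fixed markers. The members, lists and rules were chosen with earlier results of these data known. Replicate numbers were left out of the model because they mark no shared animal or day in the labels.

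Alternatives were no filter, a stricter filter, quantile normalization, median centring, a pseudocount of 0.25, trended and robust variance, weights per array, a fit without naive arrays, a spike-in term, the replicate number as a block, other thresholds, other rules for genes and leaving out each array.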

Additional observations from a re-analysis of the deposited data

How the results depend on the processing

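Of the 44 named genes called, none changed sign under the alternatives run, but 2 stayed called with trended variance, 8 with the replicate block, 27 with no filter and 0 with the spike-in term (limma). For probe sets called, called lower, called higher, lost, persisting and newly present, and for genes called, the values were 170, 115, 55, 73, 6, 29 and 96. No filter gave 128, 78, 50, 54, 6, 24 and 70. The stricter filter gave 62, 36, 26, 22, 5, 16 and 37. Trended variance gave 8, 4, 4, 1, 0, 2 and 3, and an adjusted p under 0.01 gave 28, 12, 16, 9, 0, 11 and 19. The replicate block gave 15, 5, 10, 4, 0, 8 and 9. The correlations of deviations from the group mean ran from -0.365 to 0.171 for same-numbered arrays of different groups. For differently numbered ones they ran from -0.188 to 0.353. Within such small groups the deviations are tied to each other, so these correlations cannot decide whether the numbers pair the arrays. The spike-in term gave 0, 0, 0, 0, 3, 0 and 0. Array weights, whose fit did not converge, gave 1562, 1287, 275, 985 and 24, and 837 genes. Quantile normalization gave 257 probe sets, 109 higher and 151 genes, the pseudocount gave 114 lost, and a fit without naive arrays gave 591, 504, 87 and 318 genes. Leaving out 1 array gave 25 to 810 probe sets, 13 to 698 lower, 12 to 112 higher, 8 to 575 lost, 0 to 29 persisting, 2 to 38 newly present and 16 to 429 genes. For these counts the cause was not tested, beyond the fewer probe sets or arrays that an alternative uses.

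Signs turned only for named genes that were not called. Cd3e turned to 0.19 with quantile normalization, 0.0066 with median centring, 0.21 with the pseudocount, 0.15 with array weights, 0.44 without day 7 replicate 2 and 2.42 without day 28 replicate 1 (range -2.69 to 2.42 over arrays left out). Foxp3 turned to -0.75 with array weights, -0.75 with the spike-in term, -0.21 and -0.083 without day 7 replicates 1 and 2 and -0.53 without day 28 replicate 2 (range -0.53 to 0.81). With the spike-in term Ccr7 had -1.56 and Igfbp4 -0.22. With 1 array left out, Cxcr5 ranged from -1.40 to 0.25, Bcl2 from -0.70 to 0.018 and Cd4 from -2.46 to 0.38. List medians ran from -2.02 to -1.32 for mitosis, 2.53 to 3.18 for B cells and 1.24 to 2.17 for class II. Ratios carry no level, so signal over background could not be read, and with 2 arrays at day 28 leaving out 1 leaves the other assumed to vary like the other groups.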

Other observations

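Gene lists of glycolysis, the ribosome, the proteasome, regulatory T cells and the interferon response held no call between day 7 and day 28. Of 16 glycolysis genes 0 passed in limma (0 higher and 6 lower at an unadjusted p under 0.05), with a median difference of -0.86. Tpi1, triose phosphate isomerase, had 4.13, 1.79 and 2.95 at day 7 and -0.21 and -0.48 at day 28 (-3.30 ± 0.63, limma adjusted p = 0.057). The medians were -0.40 for 30 proteasome genes, 0.42 for 26 cytosolic ribosome genes and -0.08 for 23 interferon response genes, with 0 called in limma (0, 1 and 1 higher and 5, 2 and 1 lower at an unadjusted p under 0.05). Within spike-in sets the median differences of these lists were -0.52, 0.091 and 0.92, so the sign of the interferon response list turned. Of 11 regulatory T cell genes 0 passed (2 higher and 3 lower at an unadjusted p under 0.05), and Foxp3, their defining factor, had 0.14 ± 0.67 (adjusted p = 0.935), turning to -0.75 with the spike-in term.

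Beta-actin, chosen after its values were seen, rose by 1 of its 2 tested probe sets, with -1.30, -1.45 and -0.71 at day 7 and 2.59 and 1.97 at day 28 (Actb, 3.43 ± 0.62, limma adjusted p = 0.0494). The other had -0.02, -2.18 and -1.44 at day 7 and 0.22 and 0.02 at day 28 (1.33 ± 0.90, adjusted p = 0.506).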
